A study of Mus musculus with 8 samples.

Results

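Fabp7 and Vim are 2 of the 9140 genes in the deposited single-cell matrix and were picked by name, as a pair of genes that mark radial glia. They were followed in all 30408 cells of all 8 libraries. Each library was made by droplet sequencing of 3′ ends from mouse hippocampal neural progenitor cells in culture, and each RNA molecule was counted once through its unique molecular identifier (UMI). According to the labels, the cells were dissected from the dentate gyrus at embryonic day 18, whereas the methods of the study place the dissection 1 day earlier and name the hippocampus. The embryos were littermates from C57BL/6J females crossed with Kmt2d+/βgeo males. The first group carries the label Kmt2d+/βgeo with the allele Mll2Gt(RRt024)Byg, a gene trap in 1 copy of Kmt2d, which encodes a histone H3 methyltransferase. The second group carries the strain label C57BL/6J and a wild-type allele. All cultures were held as progenitors with EGF and FGF2 in Neurobasal medium (day 0), and the later libraries were taken 2, 4 and 8 days after both factors were removed. Each combination of label and day has 1 library, so culture, animal and label cannot be told apart. A difference between single libraries therefore has no replicate check, and cells were not used as replicates of a condition. Intervals on levels cover the counting of UMIs, and those on shares the sampling of cells from 1 library. None covers variation between cultures. The test across days that the design allows is given with the comparison of labels.

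Radial glia are the progenitors that line the ventricles of the embryonic brain and send a long process to its surface, and in the dentate gyrus cells of this type persist into adult life as neural stem cells. Fabp7, also called brain lipid-binding protein, is a small cytosolic carrier of long-chain fatty acids and a known target of Notch signalling in radial glia. Vim encodes vimentin, an intermediate filament protein that forms the cytoskeleton of the radial process and is also made by immature and reactive astrocytes and by mesenchymal cells. Both genes are textbook markers of the same progenitor, which makes the points at which their levels part informative to describe.

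On GRCm38, Fabp7 (ENSMUSG00000019874) lies on chromosome 10 from 57784881 to 57788450, and Vim (ENSMUSG00000026728) lies on chromosome 2 from 13573927 to 13582826. In GENCODE M21 the longest-spanning transcript of Fabp7 has 4 exons and 396 coding bases, and that of Vim has 9 exons and 1398 coding bases. The assay reads tags next to the polyadenylated 3′ end. The 30 bases that hold the last AATAAA, the common polyadenylation signal, in each of these transcripts are therefore shown, with the signal in capitals. They lie in the 3′ untranslated part of the last exon, on the plus strand, at chr10:57788421-57788450 and chr2:13582796-13582825, and the signal ends 12 and 13 bases before the annotated transcript end.
Fabp7: aaaccaaattgaAATAAAaaatacacacac
Vim: tgttactgcttcAATAAAtcttcaaaaata

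The start regions were read to show what the pair shares in sequence. In the 250 bases before the RefSeq start (GRCm38.p6), each gene holds 2 copies of CCAAT, counted on both strands, where it reads ATTGG on the opposite strand. The copy nearest the start is shown for each gene with the motif in capitals, at chr10:57784855-57784884 for Fabp7 and chr2:13574205-13574234 for Vim, followed by the one TATAAA of Vim at chr2:13574267-13574296.
Fabp7 CCAAT, opposite strand: gtcattcaaatgATTGGctttttgcccgct
Vim CCAAT, opposite strand: ttccgggtccccATTGGctggctcgctcgg
Vim TATAAA: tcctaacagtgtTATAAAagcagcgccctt
These sites lie 56 and 94 bases before the start for CCAAT and 32 bases before it for TATAAA. For Fabp7 the distance is to the RefSeq start. The transcript of Fabp7 described above starts further upstream, so that this CCAAT lies 14 bases before it and the last 4 bases shown are inside it. The Vim windows fall inside the 5′ untranslated part of a longer GENCODE transcript. Of 32851 RefSeq promoters of the same length, 33.8% hold CCAAT and 12.4% hold TATAAA on either strand. The Fabp7 window holds 0 copies of TATAAA. These are matches of letters, and no deposited file measures binding at them.

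A few facts of the libraries bear on what follows. Libraries held 2534 to 4900 cells, with a median of 3972 to 11230 UMIs per cell on the matrix genes, and the shallowest was the day 8 library labelled Kmt2d+/βgeo. Counts over cells were therefore compared after each cell was thinned to 3000 UMIs. This left out 765 of 2965 cells of that library, 23 cells of the day 0 library labelled Kmt2d+/βgeo and 4 cells of wild-type day 8. Between libraries, 103 cell barcodes occurred more than once, with at most 10 for any pair of libraries. The 2 libraries of day 4 were more alike than those of the other days. Between them the log2 ratios of 7459 genes had an SD of 0.11, compared with 0.34, 0.38 and 0.49 between labels on days 0, 2 and 8. The genotype of either day 4 library is therefore in doubt, and this spread does not tell which label would be wrong. Their values are given as those of a label. Kmt2d itself did not check the labels. Its mean normalised count on days 0, 2, 4 and 8 was 0.193, 0.171, 0.295 and 0.290 under the label Kmt2d+/βgeo against 0.157, 0.197, 0.237 and 0.241 in wild type, so it was not lower under that label on 3 of the 4 days. Whether 3′ tags read the trapped allele was not tested. Of the listed markers of other cells, microglia, endothelium, and mural cells and fibroblasts had 0 genes in the matrix, so a source of Vim in those cells was not tested. The 6 astrocyte genes (Apoe, Slc1a2, Slc1a3, Gja1, S100b and Aldh1l1) summed to normalised counts of 17.8 to 24.2 at day 0 and 109.5 to 267 later. Apoe alone gave 94.7 to 244 of these later sums, and without it the other 5 summed to 10.1 and 11.96 at day 0 and to 14.8 to 31.7 later. The 3 neuron genes (Map2, Rbfox3 and Prox1) summed to between 3.07 and 4.46 in every library, of which Map2 gave 2.85 to 4.00. Rbfox3 alone was at 0.0054 and 0.017 on day 0 and at 0.170 and 0.176 on day 4. Of 4 ependymal genes, Dynlrb2, a dynein light chain, was in the matrix, and its mean normalised count was 0.036 and 0.048 at day 0 and 0.254 and 0.378 at day 8. It was highest in wild type at day 8, as Vim was, and its part in the level of Vim was not tested.

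Fabp7 was highest 2 days after withdrawal and lowest at day 8 under both labels. In the libraries labelled Kmt2d+/βgeo, its mean normalised count, which is the count per cell after scaling every cell to the same total, was 34.6 at day 0, 43.5 at day 2, 25.01 at day 4 and 15.02 at day 8. In wild type it was 27.0, 41.2, 23.1 and 15.5. Both courses were thus above their start at day 2 and below it at days 4 and 8, and the 2 libraries of a day were neighbours in the order of the 8. By mean log2 values the day 0 library labelled Kmt2d+/βgeo, at 4.90, instead lay between the day 2 libraries, at 4.93 and 4.80. From day 0 to day 8 the log2 ratio was -1.20 under the label Kmt2d+/βgeo and -0.80 in wild type. The median over all genes compared was 0.11 and 0.04. An absolute log2 ratio of at least 1 at day 8 was reached by 32.9% of genes under the label Kmt2d+/βgeo and by 27.3% in wild type, so passing it is common. At day 2 the corresponding shares were 17.4% and 13.6%, and the log2 ratios of Fabp7 were 0.33 and 0.61.

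Vim did not follow this course. Its mean normalised count under the label Kmt2d+/βgeo was 35.4 at day 0, 81.8 at day 2, 45.2 at day 4 and 43.7 at day 8. In wild type it was 30.3, 50.5, 45.0 and 86.6. The peak therefore fell on day 2 under the label Kmt2d+/βgeo and on day 8 in wild type, and these were the highest levels of the 8 libraries, while both day 0 libraries were the lowest. The log2 ratio to day 0 was 1.21 on day 2 and 0.31 on day 8 under the label Kmt2d+/βgeo, and 0.74 and 1.52 in wild type. The plot of mean level by day shows both courses.

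**Figure D1:**
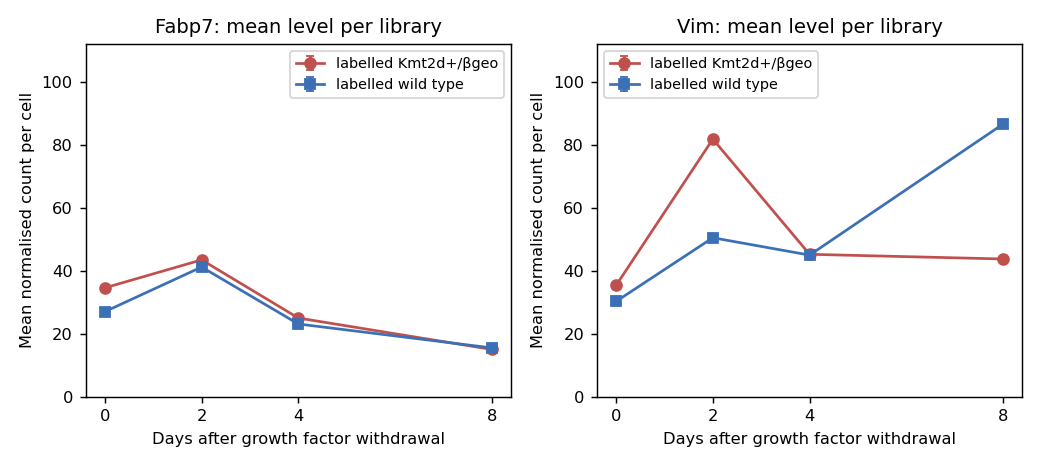
Mean normalised count per cell of Fabp7 (left) and Vim (right) against days after growth factor withdrawal, 1 point per library, with circles for the label Kmt2d+/βgeo and squares for wild type. Error bars are exact Poisson intervals of the summed count and are smaller than the symbols. Fabp7 falls to 15.02 and 15.52 at day 8 under both labels, whereas Vim peaks at 81.8 on day 2 under the label Kmt2d+/βgeo and at 86.6 on day 8 in wild type.

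Between labels on the same day, the pair also differed in pattern. The log2 ratio of the label Kmt2d+/βgeo over wild type for Fabp7 was 0.36 at day 0, 0.08 at day 2, 0.11 at day 4 and -0.05 at day 8. For Vim it was 0.22, 0.70, 0.0082 and -0.99. At day 2 Vim was thus 1.62-fold higher under the label Kmt2d+/βgeo, and at day 8 it was 1.98-fold higher in wild type, whereas the largest ratio of Fabp7 was 1.28-fold, at day 0. Among all genes compared, an absolute log2 ratio of at least 1 was reached by 1.55% at day 0, 2.84% at day 2, 0% at day 4 and 4.87% at day 8. Neither gene reached it on any day by this measure. At day 8 Vim stood at the 2.97 percentile of the ratios of all genes, and at day 2 at the 96.9 percentile. With the labels paired by day, the mean log2 ratio was 0.12 ± 0.17 (SD, n = 4 days) for Fabp7, higher under the label Kmt2d+/βgeo on 3 of 4 days, with p = 0.25 by a two-sided exact permutation test over sign changes. For Vim it was -0.014 ± 0.71, also higher on 3 of 4 days, with an exact p of 1. The days counted as higher for Vim include day 4, whose ratio of 0.0082 is too near 0 to order the labels. The smallest p that 4 days allow is 0.125, so this test could not reach 0.05. The titles give each label 1 sample number that recurs on all 4 days, so the days may share a source and may not be independent pairs. Whether the ratio differs between days could not be tested.

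For some neighbours in the order of levels, the order depended on the measure. The day 4 ratio of Vim was 0.0082 for mean normalised counts, 0.014 for summed UMIs (0.0035 to 0.025 by the exact conditional interval) and -8.2e-05 for mean log2 values, so no order of the labels is read from it. The day 8 ratio of Fabp7 also changed sign, at -0.05 for mean normalised counts, 0.06 for summed UMIs, 0.10 after thinning and -0.22 for mean log2 values, so no order of the labels is read from it. The day 8 ratio of Vim was -0.98 after thinning and -1.06 for mean log2 values. The last of these is past 1, on a measure by which 0.396% of all genes were. With 1 library per group the spread between cultures is unknown for each of these values.

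The spread over cells shows that the higher mean of Fabp7 at day 2 lay in the upper part of its distribution. After thinning, the median cell under the label Kmt2d+/βgeo held 11 Fabp7 UMIs at day 0 and again 11 at day 2. The 75th percentile went from 16 to 21, the 90th from 21 to 34 and the 10th from 4 to 2. In wild type the median went from 8 to 10 and the 75th percentile from 12 to 19. The 90th percentile there went from 16 to 32 and the 10th from 3 to 2. The mean log2 value accordingly moved by 0.032 and 0.19 where the log2 ratio of means moved by 0.33 and 0.61. A common upper mark, the 90th percentile of all day 0 cells, was 19 UMIs for Fabp7. It was exceeded by 13.2% of cells (12.2% to 14.3%, exact binomial 95% interval) at day 0 and 27.1% (25.9% to 28.4%) at day 2 under the label Kmt2d+/βgeo, and by 4.86% (4.27% to 5.50%) and 24.9% (23.6% to 26.2%) in wild type. The share of cells under the day 0 10th percentile, 3 UMIs, also grew, from 5.11% to 10.3% and from 6.42% to 13.4%.

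By day 4 the lower part of the distribution had moved further down. Cells under 3 Fabp7 UMIs made up 27.3% under the label Kmt2d+/βgeo and 27.4% in wild type, and 27.5% and 27.6% at day 8. The upper tail was still present, with 10.6% and 8.26% of cells over 19 UMIs at day 4, compared with 2.45% and 1.62% at day 8. The 10% of cells with most Fabp7 held 38.5% and 38.9% of all Fabp7 UMIs at day 4, the highest shares of the 8 libraries, against 24.1% and 22.6% at day 0. The coefficient of variation beyond counting noise, which is the SD over the mean after the part that random sampling of UMIs gives is removed, under the label Kmt2d+/βgeo was 0.584, 0.913, 1.18 and 0.927 on days 0, 2, 4 and 8. In wild type it was 0.501, 0.930, 1.22 and 0.943. Relative to its mean, Fabp7 was thus most uneven over cells at day 4. Its variance divided by its mean was highest at day 2, at 13.5 and 13.3, against 13.0 and 12.8 at day 4.

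Vim moved as a whole distribution. Under the label Kmt2d+/βgeo its 10th percentile, median and 90th percentile were 5, 11 and 20 UMIs at day 0 and 11, 25 and 50 at day 2. In wild type they were 4, 9 and 18 at day 0 and 16, 29 and 44 at day 8. Only 1.78% of wild-type cells at day 8 were under the day 0 10th percentile of 5 Vim UMIs, and 83.2% (81.9% to 84.5%) were over the 90th percentile of 19. The corresponding share over 19 UMIs was 65.1% in the day 2 library labelled Kmt2d+/βgeo, 33.8% in wild type at day 2, 26.0% and 26.1% at day 4, and 23.5% at day 8 under the label Kmt2d+/βgeo. Beyond counting noise the coefficient of variation of Vim lay between 0.443 and 0.552 in 7 libraries and was 0.329 in wild type at day 8, where the level was highest. These marks were chosen after the values had been seen.

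**Figure D2:**
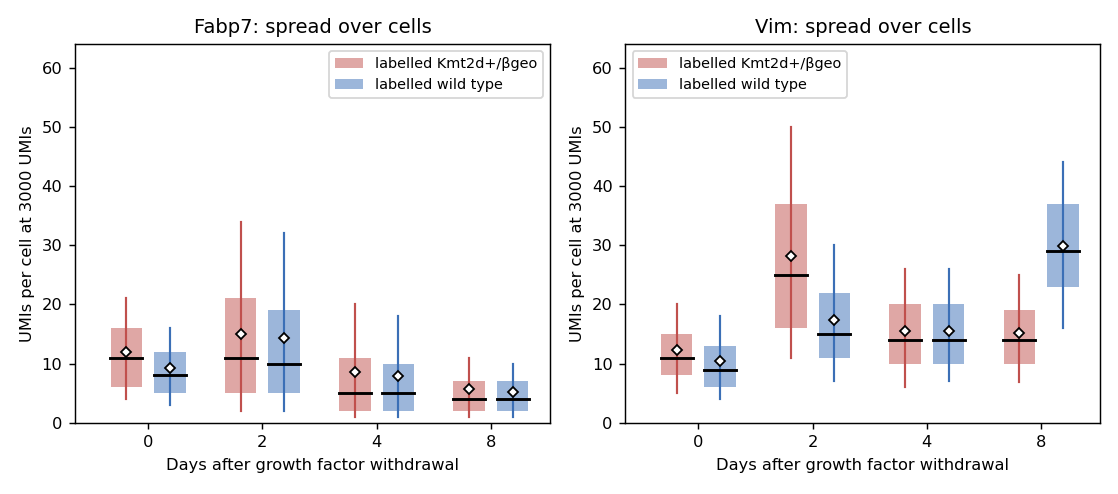
UMIs per cell of Fabp7 (left) and Vim (right) in each library after thinning every cell to 3000 UMIs, with red for the label Kmt2d+/βgeo and blue for wild type. Thin lines run from the 10th to the 90th percentile, boxes from the 25th to the 75th, black bars mark medians and diamonds means. At day 2 the Fabp7 upper line reaches 34 and 32 UMIs over medians of 11 and 10, whereas the whole Vim box lies higher in the day 2 library labelled Kmt2d+/βgeo and in wild type at day 8.

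Nearly all cells held both RNAs. After thinning, a Fabp7 UMI was found in 99.0%, 98.4%, 92.7% and 95.3% of cells on days 0, 2, 4 and 8 under the label Kmt2d+/βgeo, and in 99.4%, 97.5%, 93.5% and 95.2% in wild type. A Vim UMI was found in at least 99.5% of cells of every library. Without thinning, the Fabp7 share at day 8 under the label Kmt2d+/βgeo was 93.2%, against 99.1% in wild type. No class of cells that should lack these genes was defined. The nearest comparison was cells with a UMI of Rbfox3, a gene of mature neurons, of which 95.1% (58 of 61 cells) held Fabp7 at day 2 under the label Kmt2d+/βgeo and 86.7% (124 of 143) at day 4, against 98.4% and 93.1% of the remaining cells. The median depths were 6403 and 8315 UMIs against 7572 and 8958. In wild type the shares were 95.6% (65 of 68) and 92.0% (173 of 188) against 97.5% and 93.6%, with median depths of 6668 and 7178 UMIs against 7308 and 8032. RNA free in the suspension can give such shares, so presence of a UMI is not read as expression, and levels are used below.

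The pair parted with time under both labels. The change of Vim from day 0 exceeded that of Fabp7 by 0.88 on the log2 scale at day 2, 0.82 at day 4 and 1.51 at day 8 under the label Kmt2d+/βgeo. In wild type the excess was 0.13, 0.80 and 2.32. The excess at day 2 was thus larger under the label Kmt2d+/βgeo, that at day 4 was close between labels, and that at day 8 was larger in wild type. By mean log2 values the excess on days 2 and 4 was 1.07 and 1.18 under the label Kmt2d+/βgeo and 0.50 and 1.21 in wild type, so the small value of wild type at day 2 depends on the measure. The ratio of the 2 mean normalised counts, read here only from library to library because tags at separate genes may be captured unequally, went from 1.02 to 2.91 under the label Kmt2d+/βgeo and from 1.12 to 5.58 in wild type.

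The same was measured cell by cell. The median share of Vim among the Vim and Fabp7 UMIs of a cell was 51.9% at day 0, 70.0% at day 2, 73.3% at day 4 and 76.5% at day 8 under the label Kmt2d+/βgeo, and 52.6%, 60.9%, 75% and 87.8% in wild type. Cells with more Fabp7 than Vim UMIs went from 44.8% (43.3% to 46.3%) to 11.1% (9.81% to 12.5%) and from 42.2% (40.8% to 43.6%) to 3.87% (3.22% to 4.59%). Day 0 was thus the one day on which such cells were close in number to the others, and a minority of them was still present at day 8.

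To place cells in 4 classes, each gene was split at the median of all day 0 cells, 9 UMIs for Fabp7 and 10 for Vim. Cells above both made up 31.3% of the library labelled Kmt2d+/βgeo and 16.4% of wild type at day 0, with 49.4% and 38.8% by day 2, then 18.9% and 17.8%, and finally 7.91% and 9.41% by day 8. Cells above for Vim alone went from 24.4% and 25.7% at day 0 to 41.1% and 36.7%, 53.9% and 55.4%, and 61.9% and 85.8%. Those above for Fabp7 alone went from 24.9% and 24.99% to 6.09% and 2.12% at day 8. At day 8 the labels also differed in cells above for neither, 24.1% (22.3% to 25.9%) under the label Kmt2d+/βgeo and 2.68% (2.15% to 3.30%) in wild type. Between 132 and 722 cells of a library lay at 1 of the 2 medians.

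**Figure D3:**
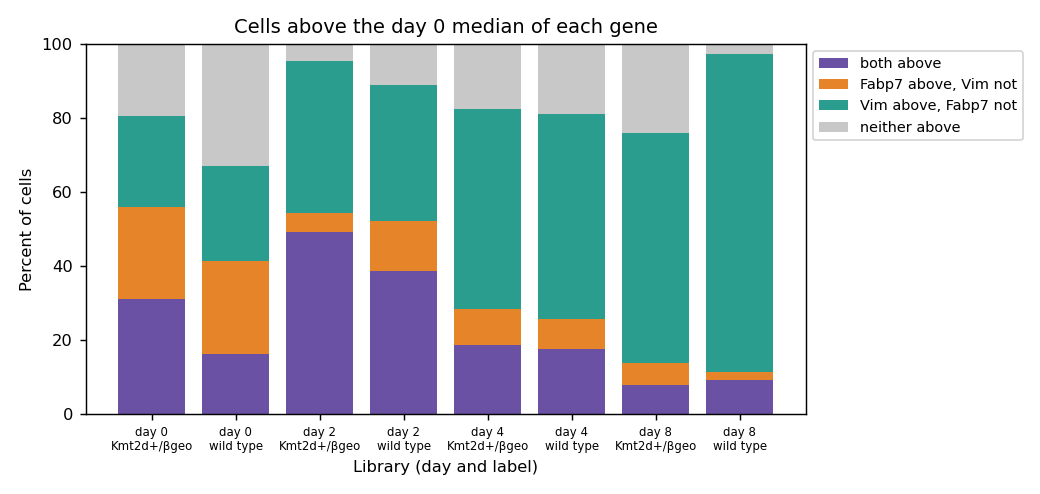
Percent of cells in each library that lay above the day 0 median of both genes, of Fabp7 alone, of Vim alone or of neither, after thinning to 3000 UMIs, with libraries ordered by day and label. The class above both is largest at day 2, with 49.4% and 38.8%, and the class above for Vim alone grows to 61.9% and 85.8% at day 8.

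Within a library the levels of the pair were weakly related. Pearson's r between log2(UMIs + 1) of Fabp7 and Vim over cells on days 0, 2, 4 and 8 was 0.010, 0.050, -0.053 and -0.174 under the label Kmt2d+/βgeo and -0.062, -0.016, -0.066 and -0.183 in wild type, over 2200 to 4900 cells each. At day 8 Vim was nevertheless among the 5 genes of 4150 with the lowest r with Fabp7 in both libraries. These day 8 values depended on the measure. Under the label Kmt2d+/βgeo r was -0.089 for log2 values as deposited and -0.095 at 1500 UMIs, and in wild type Spearman's rho was -0.089. All of these values are given as a description, since cells of a library share its depth and preparation and all thinned counts share 1 total. When cells were ranked by Fabp7 and cut into 5 equal groups, mean Vim was 12.3 UMIs in the lowest and 12.1 in the highest group at day 0 under the label Kmt2d+/βgeo, and 11.3 and 10.1 in wild type. At day 8 it was 16.7 and 13.1, and 30.5 and 26.6. In wild type at day 8 the lower 4 groups lay between 30.4 and 30.9, so the lower Vim was seen in the group with the most Fabp7.

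Depth moved with the level of Fabp7 over cells. Each library was split at its median depth, and thinned Fabp7 in the deeper cells exceeded that in the shallower ones by 0.12 on the log2 scale in both day 0 libraries, by 0.73 and 0.61 at day 2, by 0.54 and 0.45 at day 4 and by 0.43 and 0.22 at day 8. For Vim the same difference was -0.29 and -0.37 at day 0 and -0.21 in wild type at day 2, and between 0.0071 and 0.12 in the other libraries. The part of depth in the tail of Fabp7 at day 2 was not tested.

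Cells in division were compared through Top2a, the topoisomerase of dividing cells. At day 0, 38.0% and 33.7% of cells held a Top2a UMI. These cells held fewer Vim UMIs than the others, 10.6 against 13.2 under the label Kmt2d+/βgeo and 9.02 against 11.1 in wild type, while their Fabp7 was 11.4 against 12.3 and 9.17 against 9.35. After withdrawal the share with Top2a was 1.09% to 2.13%. In wild type at day 8 the 60 cells with Top2a held 9.02 Fabp7 UMIs against 5.21 in the others and 19.6 Vim UMIs against 30.02. The 73 such cells of wild-type day 4 held 11.2 against 7.87 for Fabp7 and 13.0 against 15.6 for Vim. In the libraries after withdrawal with at least 50 cells on each side, Vim was lower in cells with Top2a in each, and Fabp7 was higher at day 4 under both labels and in wild type at day 8 but level at day 2 under the label Kmt2d+/βgeo.

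Cells with Olig2, a transcription factor of the oligodendrocyte lineage and of some progenitors in culture, changed sides for Fabp7 with time. At day 2 cells with an Olig2 UMI held 11.8 Fabp7 UMIs against 19.0 in cells without under the label Kmt2d+/βgeo, and 12.6 against 17.4 in wild type. At day 8 the order was the opposite, 6.60 against 5.39 and 7.46 against 4.91. Vim was lower in cells with Olig2 at day 8, 13.8 against 15.6 and 23.1 against 31.0. The share of cells with Olig2 itself fell from 72.2% and 85.2% at day 0 to 23.7% and 14.7% at day 8, so the cells that carried it made up a different part of each library.

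Other markers set apart Fabp7 more than Vim at day 2. Cells with a UMI of Hopx, a homeodomain protein of adult neural stem cells and outer radial glia, held 21.6 Fabp7 UMIs against 12.4 in the others at day 2 under the label Kmt2d+/βgeo, and 18.1 against 12.5 in wild type. For Vim the values were 33.3 against 26.3 and 18.0 against 17.2. At day 8 Hopx separated neither gene by more than 0.22 on the log2 scale. Sox9, a transcription factor of neural stem cells and astrocytes, went with higher Fabp7 at day 2 (17.3 against 13.2, and 15.9 against 12.2) and with lower Fabp7 at day 8 (5.47 against 6.51, and 5.05 against 6.76). The last of these differences was -0.42 on the log2 scale and -0.19 when cells were thinned to 1500 UMIs. Cells with Rbfox3 held less Fabp7 at day 2, 7.46 against 15.1 and 8.37 against 14.3, with 20.6 against 28.4 and 16.4 against 17.5 Vim UMIs. They also held less Fabp7 at day 4, 5.18 against 8.76 and 4.89 against 8.11, but 14.2 against 15.6 and 15.8 against 15.5 Vim UMIs. At day 8 their Fabp7 was 4.67 against 5.70 and 4.92 against 5.29. Cells with Gja1, the gap junction protein of astrocytes, differed from the others by at most 0.29 on the log2 scale for either gene at 3000 UMIs. At day 2 their Fabp7 was higher, by 0.29 and 0.20, and their Vim lower, at -0.22 and -0.18. At day 4 both genes were higher in them, by 0.048 to 0.13. A UMI of Apoe was held by at least 98.9% of cells from day 2 on, so at 3000 UMIs it left too few cells without it. At day 0 cells with Apoe held 12.5 Vim UMIs against 11.2 under the label Kmt2d+/βgeo, and 10.99 against 9.47 in wild type. Their Fabp7 was 12.2 against 11.2, and 9.27 against 9.33. At 1500 UMIs, 73 cells of the day 8 library labelled Kmt2d+/βgeo lacked Apoe. Cells with Apoe there held 7.60 Vim UMIs against 4.26, and 2.59 Fabp7 UMIs against 3.38.

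Each gene was then compared with the pair over cells. By median r with Fabp7 over the 8 libraries, out of 4150 genes compared, the highest were Slc1a3 (0.239), a glutamate transporter of radial glia and astrocytes, Slc4a4 (0.227), a sodium bicarbonate transporter, Pea15a (0.223), an astrocytic phosphoprotein, Slc6a11 (0.218), a GABA transporter, and Cspg5 (0.215), a proteoglycan of neural progenitors. The likeness varied with the day. For Slc1a3 r on days 0, 2, 4 and 8 was 0.218, 0.438, 0.300 and 0.053 under the label Kmt2d+/βgeo and 0.206, 0.414, 0.259 and 0.0011 in wild type. Slc4a4, Pea15a and Slc6a11 also had their lowest r at day 8. For Cspg5 r on the same days was 0.064, 0.196, 0.314 and 0.241 under the label Kmt2d+/βgeo and -0.017, 0.206, 0.293 and 0.223 in wild type. Mt3, a metallothionein of brain, was the gene with the highest r in both day 0 libraries (0.336 and 0.252) and at day 2 under the label Kmt2d+/βgeo (0.488). At day 8 its r with Fabp7 was 0.0046 under the label Kmt2d+/βgeo and -0.162 in wild type. Its r with Vim was 0.426 and 0.408 at day 4, and 0.026 and 0.590 at day 8.

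The highest median r with Vim belonged to Dbi (0.253), the acyl-CoA binding protein, Sparc (0.239), a secreted matrix glycoprotein, S100a10 (0.218), a partner of annexin A2, Lgals1 (0.200), galectin-1, and Timp2 (0.198), an inhibitor of metalloproteinases. For Dbi r with Vim over the same days was 0.238, 0.189, 0.539 and 0.268 under the label Kmt2d+/βgeo and 0.148, 0.0035, 0.484 and 0.625 in wild type. Apoe, the astrocytic lipid carrier, had an r with Vim of 0.137 and 0.518 at day 8. At the other end were Cspg5 (-0.256), Olig2 (-0.224) and Ptprz1 (-0.208), a receptor phosphatase of radial glia and oligodendrocyte precursors. In wild type at day 8 r with Vim was -0.487 for Olig2 and -0.338 for Cspg5.

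Several genes thus stood on opposite sides of the pair. At day 8 Cspg5 and Ptprz1 had an r with Fabp7 of 0.241 and 0.211 under the label Kmt2d+/βgeo and 0.223 and 0.203 in wild type. With Vim the values were -0.233 and -0.200, and -0.338 and -0.296. Dbi went with Fabp7 at day 2, with an r of 0.435 and 0.394, and not at day 8, with -0.0081 and -0.159, whereas its r with Vim was highest at days 4 and 8. For comparison, the median r over the 4150 genes was -0.0049 for Fabp7 and -0.0091 for Vim. The thinned counts of a cell share 1 total, and the part of this in a negative r was not tested.

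**Figure D4:**
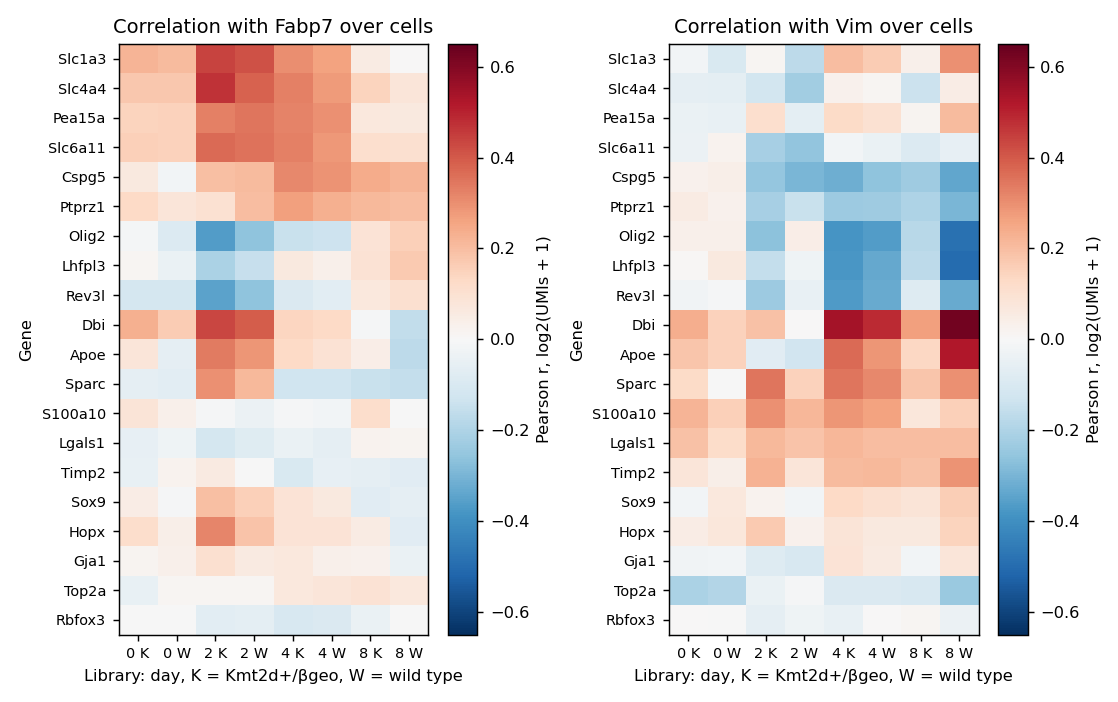
Pearson's r of log2(UMIs + 1) over the cells of each library between Fabp7 (left) or Vim (right) and 20 other genes, after thinning to 3000 UMIs. Columns are libraries by day, with K for the label Kmt2d+/βgeo and W for wild type. Slc1a3 goes with Fabp7 at day 2 (0.438 and 0.414) and not at day 8, Dbi goes with Vim at day 8 in wild type (0.625), and Cspg5 and Ptprz1 are positive for Fabp7 and negative for Vim from day 2 on.

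Over libraries, the pair was compared with every gene whose mean normalised count was at least 0.5 in at least 1 library. The measure was Pearson's r of the mean log2 value over 8 libraries. The genes named are the ends of that ranking, and the spread of r over all genes is not given. The libraries differ in depth and day, and r was not adjusted for either. The r between Fabp7 and Vim was -0.14. The genes most like Fabp7 were Aimp1 (0.988), a scaffold of the aminoacyl-tRNA synthetase complex, Tbc1d15 (0.982), a Rab GTPase-activating protein, Eif3e (0.981), a translation initiation subunit, Rab34 (0.978), a Rab GTPase, and Cct4 (0.977), a chaperonin subunit. Those least like it were Gdf11 (-0.983), a TGF-beta family ligand, Scd2 (-0.982), a fatty acid desaturase, and D5Ertd579e (-0.978). Those most like Vim were Bace2 (0.981), an aspartyl protease, Pls3 (0.936), an actin-bundling protein, Poldip2 (0.928), Ngly1 (0.915) and Chm (0.907), and those least like it were Coro1c (-0.903), an actin-binding coronin, Ctnnbip1 (-0.878) and Cdc42se1 (-0.863). Without the day 4 library labelled Kmt2d+/βgeo, r of the 10 most like genes differed by less than 0.1. With Spearman's rho in place of r, the likeness to Vim was lower for Bace2 (0.881), Pls3 (0.786) and Poldip2 (0.810). For Ngly1 (0.905), Chm (0.857) and the named genes most like Fabp7, rho differed from r by less than 0.1. Between Fabp7 and Vim rho was -0.024.

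The related genes listed beside the pair did not share one course. In the radial glia list, 13 of 20 genes besides the pair were in the matrix. From day 0 to day 8, 2 of 13 were higher by at least 1 on the log2 scale and 1 was lower under the label Kmt2d+/βgeo, with a median of 0.23 against 0.11 over all genes. In wild type 3 of 13 were higher and 2 lower, with a median of 0.25 against 0.04. Hopx and Sox9 were higher under both labels, by 3.82 and 3.01 for Hopx and by 2.15 and 1.35 for Sox9. Tnc, the matrix protein tenascin C of the stem cell niche, was lower, and its mean normalised count went from 2.25 to 0.0117 and from 1.46 to 0.0222. Ptn, a growth factor made by radial glia, had log2 ratios of -0.58 under the label Kmt2d+/βgeo and -1.16 in wild type. Ednrb, the endothelin receptor B, also passed in wild type alone and in the other direction, with 0.77 under the label Kmt2d+/βgeo and 1.82 in wild type.

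Of 18 intermediate filament genes and linkers, 5 were in the matrix, and none of them was another cytoplasmic intermediate filament. From day 0 to day 8, 2 of 5 were higher and 1 lower under the label Kmt2d+/βgeo, and 3 of 5 were higher and 1 lower in wild type. Plec, which links filaments to other structures and to the membrane, was higher by 3.52 and 4.11, and Macf1, a linker of actin and microtubules, by 1.01 and 1.10, whereas the nuclear lamin Lmnb1 was lower, at -3.59 and -3.19. The day 0 means of Plec were 0.055 and 0.027, under the minimum of 0.1, so its ratios rest on small values. In the list of fatty acid binding and lipid metabolism, 10 of 15 genes were in the matrix. Of these, 4 were higher and 1 lower under the label Kmt2d+/βgeo, and 5 were higher and 1 lower in wild type. Dbi was higher by 1.80 and 2.94, Acsl6, an acyl-CoA synthetase, by 3.03 and 3.61, Scp2, a sterol carrier, by 1.19 and 1.79 and Fads2, a desaturase, by 1.08 and 1.26. The day 0 means of Acsl6, 0.028 and 0.041, were also under the minimum of 0.1. Acsbg1, an acyl-CoA synthetase of brain, was lower, at -2.44 and -1.58, on the same side as Fabp7.

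Of the Notch pathway and regulators of Fabp7, 9 of 15 genes were in the matrix. Of 8 compared under the label Kmt2d+/βgeo, 2 were higher at day 8 and 0 lower, and of 9 in wild type 1 was higher and 0 lower. Notch2, a receptor, was higher by 3.28 and 2.47, while Fabp7 was lower. Of the list of AP-1, TGF-beta and injury genes around Vim, 10 of 20 were in the matrix, 3 of them higher and 1 lower under the label Kmt2d+/βgeo and 4 higher and 1 lower in wild type. Cd44, the hyaluronan receptor, was higher by 2.26 and 1.01, S100a10 by 1.24 and 1.34 and S100a11, a calcium-binding protein, by 2.13 and 2.98. Serpine2, a protease inhibitor of glia, was lower, at -1.44 and -1.47. Against a background of 32.9% and 27.3% of all genes past the same fold, nothing particular is read from the counts of these lists from day 0 to day 8. Between labels at day 8, where 4.87% of all genes passed that fold, 1 of 12 genes of the radial glia list was higher under the label Kmt2d+/βgeo and 1 lower. The counts were 0 and 0 of 5 for the filament list, 0 and 4 of 10 for the lipid list, 1 and 0 of 8 for the Notch list and 2 and 1 of 10 for the injury list. No list was tested.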

How the data were processed

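The data were droplet single-cell libraries of mouse hippocampal progenitors, 1 for each label and day. Spliced molecules were counted by the authors with Alevin (Salmon 1.3.0 in the submitters' processing notes, which also name Seurat 3.2.2) on GRCm38, per the study's methods. Low-quality cells and doublets were removed, as were mitochondrial and rarely seen genes. The deposited matrix holds log2 values of counts scaled by library size. A deposited cell table gives the total UMIs of each cell as the authors' estimated count. No further doublet caller was run, and cells were not clustered.

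The log2 values were reversed to normalised counts (exponent taken, 1 subtracted), which summed to 8707 in every cell. Dividing by the worth of 1 UMI gave values of which 86.8% were within 0.01 of a whole number. These estimates were rounded for thinning, which drew each cell to 3000 UMIs (1500 as an alternative). Levels were means over all cells. Genes were compared where either mean was at least 0.1, and counted at an absolute log2 ratio of 1. Each group has 1 library, so the one test run was a two-sided exact permutation test of the log2 ratios between labels, paired by day and added after seeing the data. Intervals are 95% exact binomial, exact Poisson or exact conditional. The binomial ones treat the cells of 1 library as independent draws, the others cover counting error of UMIs, and none covers variation between cultures. Likeness was computed for genes with a mean of at least 0.5 in at least 1 library.

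Named genes were the pair, the 5 most and 3 least like each over libraries, the 5 most like each over cells, 7 markers and listed genes past the threshold at day 8 under both labels. The genes at the low end of the likeness over cells, Mt3, Ptn, Ednrb and the remaining genes of the heat map were named after their values were seen. The pair, the lists and the markers were chosen with earlier results of these data known. Alternatives changed the scale, depth, cells, weights, pseudocount, minimum and measure of likeness. Python 3.11.15, numpy 2.4.6, scipy 1.17.1 and pandas 2.3.3 were used, and the steps were tested on simulated data.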

Additional observations from a re-analysis of the deposited data

Results flagged for a closer look

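Some changes of the pair ran in opposite directions in the groups compared. Each group has 1 library, so none of these differences between days or labels was tested. From day 2 to day 8 the log2 change of Vim was -0.90 under the label Kmt2d+/βgeo and 0.78 in wild type. From day 4 to day 8 it was -0.048 and 0.95, and each of these rests on a day 4 library whose genotype is in doubt. The log2 ratio of the label Kmt2d+/βgeo over wild type for Vim was 0.22, 0.70 and 0.0082 on days 0, 2 and 4 and -0.99 on day 8. For Fabp7 it was 0.36, 0.078 and 0.11 and then -0.047, a sign that turned with the measure.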

How the results depend on the processing

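Except for the day 8 ratio of Fabp7 between labels, every log2 ratio and change of the pair between labels and from day 0 kept its sign under each alternative, other than that the day 4 ratio of Vim, near 0, was -8.2e-05 for mean log2 values. With mean log2 values, the ratios of Fabp7 between labels on days 0, 2, 4 and 8 were 0.28, 0.13, 0.085 and -0.22, and those of Vim on days 2 and 8 were 0.65 and -1.06. On that scale the changes to days 2, 4 and 8 under the label Kmt2d+/βgeo were 0.032, -0.88 and -1.42 for Fabp7 and 1.11, 0.30 and 0.23 for Vim, and those in wild type were 0.19, -0.68 and -0.92 for Fabp7 and, on days 2 and 4, 0.68 and 0.53 for Vim. The parting by day 8 was 1.65 and 2.43. With summed UMIs the ratios of Fabp7 on days 0, 2 and 8 were 0.37, 0.10 and 0.061, and those of Vim on days 0 and 2 were 0.24 and 0.73. The changes under the label Kmt2d+/βgeo were then 0.40, -0.41 and -1.10 for Fabp7 and 1.28, 0.42 and 0.38 for Vim, those in wild type were 0.67 and -0.17 on days 2 and 4 for Fabp7 and 0.78, 0.64 and 1.61 for Vim, and the parting was 1.48 and 2.39. After thinning to 3000 UMIs the day 8 ratio of Fabp7 was 0.10, its changes to days 4 and 8 under the label Kmt2d+/βgeo were -0.48 and -1.07, and the parting there was 1.38. Without the 5% of cells with most UMIs, the day 2 ratio of Vim was 0.68 and the day 8 ratio of Fabp7 -0.087. The changes under the label Kmt2d+/βgeo were 0.32, -0.50 and -1.25 for Fabp7 and, on days 2 and 8, 1.19 and 0.29 for Vim, that of Fabp7 in wild type on day 4 was -0.24, and the parting under the label Kmt2d+/βgeo was 1.54. By day 2 in place of day 8 the parting was 0.88 and 0.13. The cause of these shifts was not tested.

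The correlations of the pair moved by less than 0.1 under each alternative, but at day 8 this was a change from -0.174 to between -0.160 and -0.089 under the label Kmt2d+/βgeo and from -0.183 to between -0.176 and -0.089 in wild type. At 1500 UMIs, a Fabp7 UMI was found in 81.3% to 95.9% of cells over the 8 libraries, and the class above both genes in 5.43% to 42.1%, with day 2 still highest. Some splits of cells by a marker also moved at 1500 UMIs. On the log2 scale, the wild-type day 8 difference went from -0.42 to -0.19 for Fabp7 by Sox9, from 0.19 to 0.078 for Vim by Sox9 and from -0.42 to -0.66 for Vim by Olig2. For Vim by Rbfox3 at day 4 it went from -0.14 to -0.027 under the label Kmt2d+/βgeo and from 0.032 to 0.25 in wild type. For Fabp7 by Rbfox3 at day 4 it went from -0.76 to -0.86 and from -0.73 to -0.94. At day 8 under the label Kmt2d+/βgeo the Fabp7 difference by Rbfox3 went from -0.29 to -0.80. For Fabp7 by Gja1 in wild type it went from 0.20 to 0.32 at day 0, from 0.10 to -0.15 at day 4 and from -0.10 to -0.20 at day 8. The counts of genes past the threshold depended on the minimum. At a minimum of 0.5 they were 27, 83 and 176 between labels on days 0, 2 and 8 in place of 110, 209 and 369, and 623 and 1302 under the label Kmt2d+/βgeo and 505 and 1071 in wild type from day 0 to days 2 and 8, in place of 1308, 2555, 1016 and 2110. With no minimum and 0.1 added they were 34, 78 and 143, then 664, 1518, 510 and 1232, and for mean log2 values 2, 10 and 30, then 100, 273, 71 and 225. No replicate number is shared between the labels, so libraries were paired by day, in a test chosen after seeing the data that treats the days of a label as separate sources. Without day 4 the mean log2 ratio between labels was 0.13 for Fabp7 and -0.022 for Vim over 3 days, with exact permutation p of 0.5 and 1, where 0.25 is the smallest possible. Depth limits the day 8 library labelled Kmt2d+/βgeo most, where 73 cells had fewer than 1500 UMIs.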
